A study of Mus musculus with 34 samples.

Results

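De novo lipogenesis, the making of fatty acids from carbohydrate carbon, was followed through 10 genes of the mouse liver. They were picked by name for their role in the pathway: Acly, Acaca, Acacb, Fasn, Me1, Srebf1, Mlxipl, Thrsp, Gpam and Pnpla3. Each gene was read from 1 probe set of the array, the brightest over all 34 arrays among those annotated with that gene symbol alone. The 10 genes belong to 18193 genes with such a probe set, and all 10 were among the 13099 genes kept for testing.

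The series measured liver RNA of mice with a Pdgf-c transgene, which carry platelet-derived growth factor C and are described as developing liver fibrosis and tumours. All mice were weaned at week 4 and then ate a basal diet or, in some transgenic mice, a diet with 0.06% peretinoin, an acyclic retinoid. The arrays of week 48 held 5 Pdgf-c Tg tumours, 5 Pdgf-c Tg livers on peretinoin, 5 Pdgf-c Tg livers on basal diet and 4 C57/B6 wild-type livers on basal diet. Those of week 20 held 5 Pdgf-c Tg livers on peretinoin, 5 Pdgf-c Tg livers on basal diet and 5 C57/B6 wild-type livers on basal diet. No wild-type mice on peretinoin were among the arrays. The labels name no promoter or cell type that drives the transgene, no sex, no hour of sampling and no feeding state, and they leave unsaid whether tumours and livers were taken from shared animals. They number the samples of a group but do not call them separate animals, so the p-values measure the spread between these samples.

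In the liver, citrate exported from mitochondria is cleaved to acetyl-CoA, carboxylated to malonyl-CoA and built into palmitate with NADPH as the reductant. Insulin acts on the pathway through the transcription factor SREBP-1c, encoded by Srebf1, and glucose acts through ChREBP, encoded by Mlxipl. The pathway is high after a carbohydrate meal and low in fasting, and it follows the daily feeding rhythm.

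The chosen probe sets were 1439459_x_at for Acly, 1434185_at for Acaca, 1427052_at for Acacb, 1423828_at for Fasn, 1430307_a_at for Me1, 1426690_a_at for Srebf1, 1419185_a_at for Mlxipl, 1424737_at for Thrsp, 1419499_at for Gpam and 1420655_at for Pnpla3. Fasn, Acaca, Acly and Srebf1 lie on chromosome 11, Acacb and Mlxipl on chromosome 5, Me1 on 9, Thrsp on 7, Gpam on 19 and Pnpla3 on 15. Pnpla3 was the dimmest, with a mean signal above 55.0% of probe sets, against 81.9% to 98.4% for the other 9 genes.

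The promoters of 5 genes are printed below. Of these genes, Mlxipl encodes one of the pathway's transcription factors, and Me1, Thrsp and Mlxipl passed the test between transgenic and wild-type liver. Fasn and Acly passed it between the ages, as did Acacb and Pnpla3, whose promoters are not printed. Each printed promoter is the 250 bases before the most upstream RefSeq start of the gene in GRCm38.p6, on the strand of the gene, 5′ to 3′. Fasn lies at chr11:120824548-120824797 on the minus strand, Acly at chr11:100528001-100528250 on the minus strand and Me1 at chr9:86695915-86696164 on the minus strand. Thrsp lies at chr7:97417551-97417800 on the minus strand and Mlxipl at chr5:135089640-135089889 on the plus strand. Capitals mark CCAAT on either strand, read as ATTGG on the other strand, and the palindrome CACGTG.
Fasn: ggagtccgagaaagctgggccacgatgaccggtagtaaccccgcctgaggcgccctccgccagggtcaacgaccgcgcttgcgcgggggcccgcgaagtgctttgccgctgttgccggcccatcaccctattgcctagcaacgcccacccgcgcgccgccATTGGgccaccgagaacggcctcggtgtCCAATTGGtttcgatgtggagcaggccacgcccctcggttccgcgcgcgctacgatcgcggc
Acly: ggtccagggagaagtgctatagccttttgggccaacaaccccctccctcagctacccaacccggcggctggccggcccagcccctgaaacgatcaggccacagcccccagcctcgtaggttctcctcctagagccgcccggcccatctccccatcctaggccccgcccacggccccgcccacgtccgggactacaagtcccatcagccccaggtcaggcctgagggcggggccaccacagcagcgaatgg
Me1: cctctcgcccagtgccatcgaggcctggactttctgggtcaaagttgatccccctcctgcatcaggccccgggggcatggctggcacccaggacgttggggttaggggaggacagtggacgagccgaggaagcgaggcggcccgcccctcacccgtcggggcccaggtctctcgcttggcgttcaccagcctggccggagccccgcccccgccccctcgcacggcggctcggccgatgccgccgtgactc
Thrsp: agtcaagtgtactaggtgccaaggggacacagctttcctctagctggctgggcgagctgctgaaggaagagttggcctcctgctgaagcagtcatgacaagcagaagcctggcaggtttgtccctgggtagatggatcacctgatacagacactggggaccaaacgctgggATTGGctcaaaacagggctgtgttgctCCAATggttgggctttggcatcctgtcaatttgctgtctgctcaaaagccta
Mlxipl: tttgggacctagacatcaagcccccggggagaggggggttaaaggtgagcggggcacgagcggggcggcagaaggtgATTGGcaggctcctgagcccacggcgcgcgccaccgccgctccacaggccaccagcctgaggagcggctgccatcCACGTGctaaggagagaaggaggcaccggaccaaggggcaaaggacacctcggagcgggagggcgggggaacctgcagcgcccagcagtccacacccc
CCAAT, a box known to bind NF-Y, was found in the windows of 7 of the 10 genes, against 33.8% of 32851 RefSeq promoter windows of the same length. Those windows take in every RefSeq start of a gene, while the 10 genes were counted at their most upstream start alone. In Fasn 2 of its 3 matches overlapped on opposite strands. The windows of Acly and Me1 held neither of the marked motifs. CACGTG, the E-box core that ChREBP and other factors can bind, was found in 1 of 10, Mlxipl, against 6.02% of windows. The sterol element core TCACNCCAC was found on either strand in 0 of 10 windows, against 1.05%. Windows at other RefSeq starts differed: a second Mlxipl start held 1 match of TCACNCCAC and a second Me1 start 1 of CCAAT. The second starts of Mlxipl and Gpam held no CCAAT. A match describes letters in this window and is no evidence of binding.

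The arrays were even in scale, with a median signal between 71.5 and 95.7. The mean log2 signal of 8 hepatocyte markers lay between 14.09 and 14.68, tumours included. Skeletal muscle or pancreatic acinar markers exceeded their 34-array median by at least 3 on the log2 scale on 6 arrays: wild type week 48 replicate 4, transgenic week 48 replicate 4, transgenic week 20 replicate 5, peretinoin week 48 replicate 1 and peretinoin week 20 replicates 3 and 5. Pdgfc itself had signals of 517.2 to 1218.8 in transgenic livers and 458.2 to 518.9 in wild-type livers at week 48, and 210 to 386.3 in transgenic livers and 258.9 to 411.7 in wild-type livers at week 20, and the groups overlapped at both ages. Whether its probe sets detect the transgene is not stated in the labels.

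**Figure D1:**
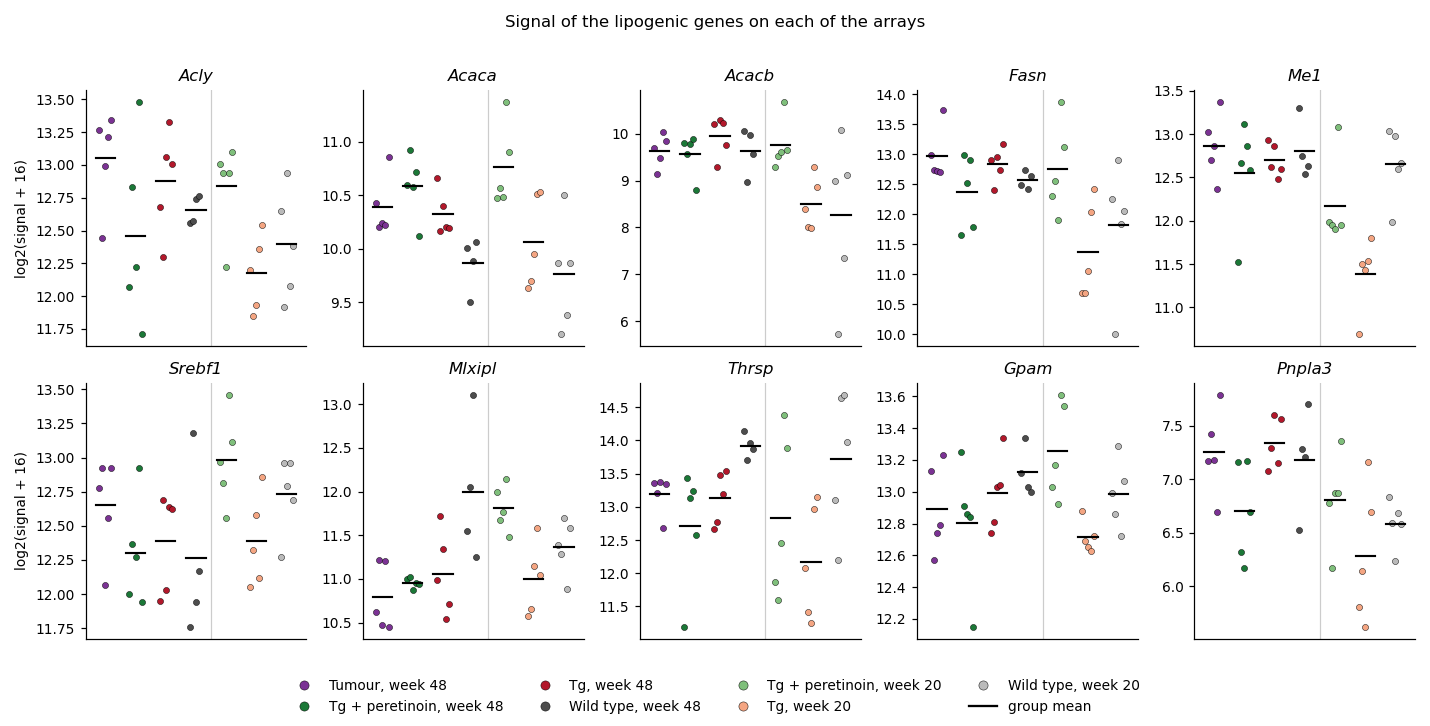
Signal of the 10 lipogenic genes on each of the 34 arrays, as log2(signal + 16), with 1 point per array and a bar for the group mean. The 5 transgenic livers of week 20 lie at or below 3539.4 for Me1, under all wild-type livers, and the 4 wild-type livers of week 48 lie highest for Thrsp among week 48 groups.

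The first comparison set transgenic against wild-type liver at week 20, the age at which the series followed fibrosis. Of the 10 lipogenic genes, 2 fell and 0 rose at an adjusted p under 0.05 (limma, Benjamini-Hochberg over 13099 genes), where 23.7% of all tested genes passed. The genes that fell were Me1 and Thrsp, and the median log2 change over the 10 genes was -0.32, against 0.06 over all tested genes.

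Me1 encodes cytosolic malic enzyme, which supplies NADPH for fatty acid synthesis. Its signal was 1636.1, 2885.8, 2736.1, 2937.6 and 3539.4 in transgenic livers of week 20, against 8432.5, 4023, 8050.1, 6178 and 6439.8 in wild-type livers. Every transgenic liver was below every wild-type liver. The log2 change was -1.26 ± 0.25 (SE, limma, adjusted p = 0.000396), a 2.40-fold fall on the log2(signal + 16) scale, and a second Me1 probe set differed by -1.24. The call held without any 1 array.

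Thrsp encodes Spot14, a nuclear and cytosolic protein that responds to thyroid hormone and carbohydrate and promotes lipogenesis. Its signal was 4316.8, 2724.1, 2418.3, 7939 and 9046.6 in transgenic livers of week 20, against 8764.9, 4679.3, 25552.3, 26479.9 and 16075.1 in wild-type livers. The groups overlapped, and both were wide: the SD was 57.4% of the mean in transgenic livers and 59.8% in wild-type livers. The log2 change was -1.55 ± 0.48 (SE, limma, adjusted p = 0.0171), and the gene's 3 probe sets differed by -2.15 to -1.55. Leaving out wild type replicate 3 or 4, or transgenic replicate 2 or 3, ended the call, with changes of -1.36 to -1.31 and adjusted p from 0.0552 to 0.064 (limma).

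The enzymes that carry the carbon did not pass the test at week 20. Fasn, fatty acid synthase, averaged 3000 ± 1740 in transgenic livers and 4290 ± 2400 in wild-type livers (SD, n = 5 each), a log2 change of -0.44 ± 0.40 (SE). Acly, which cleaves citrate, changed by -0.22 ± 0.25, and Acaca, the cytosolic acetyl-CoA carboxylase, by 0.30 ± 0.21. Acacb, the mitochondrial carboxylase whose malonyl-CoA holds back fatty acid oxidation, changed by 0.25 ± 0.47. The 95% confidence interval ran from -1.25 to 0.37 for Fasn and from -0.70 to 1.21 for Acacb, so a change anywhere within these bounds is compatible with the data. Wild-type replicate 2 was the lowest array of all 34 for Fasn, at 1006.2, and for Acacb, at 36.7.

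The regulators and the later steps were also under the threshold at week 20. Srebf1 changed by -0.34 ± 0.23 and Mlxipl by -0.37 ± 0.25 on the log2 scale. Gpam, which starts glycerolipid assembly at the mitochondrion, changed by -0.27 ± 0.16, and Pnpla3, a lipid droplet protein induced by feeding, by -0.30 ± 0.27. Among transgenic livers of week 20, replicates 4 and 5 were the highest for Fasn (4193.9 and 5461.7), Acaca (1437.2 and 1459.7), Thrsp (7939 and 9046.6) and Pnpla3 (127 and 87.5). The same 2 arrays had the lowest mean log2 signal of 9 fasting-response genes in their group, 10.72 and 10.80, against 11.82 to 12.03 in replicates 1 to 3. Their Hsd3b5, a male-biased liver gene named after its values were seen, was also highest in the group, up to 6823.5, against 12.5 to 28.8 in replicates 1 to 3. The part of these differences in the lipogenic values was not tested.

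RNA of whole tissue was measured, so fewer hepatocytes and less RNA per hepatocyte cannot be told apart. The mean log2 signal of the 8 hepatocyte markers ran from 14.09 to 14.49 in transgenic livers and from 14.41 to 14.66 in wild-type livers of week 20, and 3 of the 8 fell. That of 10 stellate cell and fibroblast markers ran from 11.05 to 11.32 in transgenic livers and from 8.10 to 9.17 in wild-type livers, and 7 of the 10 rose. Of 8 liver genes with sex-biased expression, 1 rose and 7 fell. The 7 that fell are male-biased, and the 1 that rose was the female-biased Cyp2b9, at a mean of 1160 in transgenic livers and 57.5 in wild-type livers. The labels give no sex, and of 4 sex chromosome genes 0 passed at this age, with Xist, which is high in female tissue, at 31.7 to 121.3 on all 34 arrays and the Y-linked Eif2s3y at a mean of 1960 in transgenic livers and 2350 in wild-type livers. The part of these differences in the fall of Me1 and Thrsp was not tested.

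Other genes of the pathway, counted from lists, passed the test in both directions at week 20. Of 14 genes for citrate, acetyl-CoA and NADPH supply, 1 rose and 4 fell. Idh1, a cytosolic NADPH source, changed by -0.55 ± 0.08 (SE, limma, adjusted p = 4.62e-06), Taldo1, a transaldolase of the pentose phosphate pathway, by -0.55 ± 0.14, and Aacs, which activates acetoacetate for lipid synthesis, by -1.71 ± 0.46. Of 16 genes for elongation, desaturation and triglyceride assembly, 2 rose and 1 fell: Scd2, a desaturase, rose by 2.12 ± 0.56, and Scd1, the main liver desaturase, changed by -0.50 ± 0.13 (limma, adjusted p = 0.00421). Of 16 regulators of SREBP-1 and ChREBP, 1 rose and 3 fell, among them Insig1, which retains the SREBP complex in the endoplasmic reticulum and is itself an SREBP target, by -0.72 ± 0.14, and Mlx, the partner of ChREBP, by -0.51 ± 0.14. Of 14 insulin and AMPK signalling genes 4 rose, led by Prkab2, a regulatory subunit of AMPK, at 1.32 ± 0.18.

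Markers of feeding state were also read. Of 9 fasting-response genes, 2 rose in transgenic livers of week 20, Ppargc1a by 1.64 ± 0.43 and Igfbp1 by 1.64 ± 0.47. The mean log2 signal of the 9 genes ran from 10.72 to 12.03 in transgenic livers, against 10.16 to 11.64 in wild-type livers. Of 12 circadian clock genes, 0 passed the test at this age, with 1 at an unadjusted p under 0.05. The part of feeding state in the lipogenic differences was not tested.

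At week 48, the age of tumours, 1 of the 10 genes fell and 0 rose between transgenic and wild-type liver, where 20.8% of all tested genes passed. The gene that fell was Mlxipl, and the median over the 10 genes was 0.14, against 0.04 over all tested genes. Mlxipl, which encodes the glucose-responsive factor ChREBP, had signals of 2012.7, 3363.2, 2584, 1475.6 and 1655.9 in transgenic livers, against 2981.6, 4215.1, 8854 and 2414.5 in wild-type livers. The log2 change was -0.93 ± 0.27 (SE, limma, adjusted p = 0.0119). The groups overlapped, and wild-type replicate 3 alone held the highest Mlxipl signal of all 34 arrays. Without it the change was -0.55 with an adjusted p of 0.121 (limma), so the call rested on that array, and with the compared arrays alone it was lost as well (adjusted p = 0.0817).

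Thrsp and Acaca separated the groups at week 48 without passing the test, and the share of all tested genes that separated them was not counted. Thrsp was 6520.4, 6946.6, 11447.5, 9340.2 and 11877.4 in transgenic livers, against 18206.6, 13267.9, 15903.4 and 14987.7 in wild-type livers, with every transgenic liver lower. Its log2 change of -0.79 ± 0.51 had an adjusted p of 0.288 in limma's model of all 34 arrays. In a limma fit of the compared arrays alone the adjusted p was 0.01. The spread of the full model for Thrsp includes wider groups, those of week 20 and the peretinoin livers of week 48. Acaca was 1602.8, 1124.6, 1335.5, 1156.2 and 1153.6 in transgenic livers, against 1016.3, 709.3, 925.4 and 1050.7 in wild-type livers, with every transgenic liver higher, and its change of 0.46 ± 0.23 had an adjusted p of 0.155, or 0.0427 with the compared arrays alone.

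The other 7 genes did not pass the test at week 48. Fasn averaged 7400 ± 1410 in transgenic livers (SD, n = 5) and 6080 ± 623 in wild-type livers (SD, n = 4), a change of 0.26 ± 0.42 (SE). Me1 averaged 6660 ± 878 in transgenic livers and 7290 ± 1870 in wild-type livers, a change of -0.11 ± 0.27. Acly, Acacb, Srebf1, Gpam and Pnpla3 changed by -0.13 to 0.32, with adjusted p of 0.596 to 0.766 (limma).

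Of the other pathway genes at week 48, 1 of 14 supply genes fell, Idh1, at -0.25 ± 0.09. In the elongation and assembly list 2 rose and 2 fell of 16: Scd2 rose by 3.33 ± 0.60 and Acsl3, a long-chain acyl-CoA synthetase, by 1.29 ± 0.24, and Dgat2, which completes triglyceride, was among those that fell, at -0.61 ± 0.15. Of the 16 regulators 1 rose and 2 fell: Mlx at -0.45 ± 0.15 and Nr1h3, the nuclear receptor LXR-alpha that drives Srebf1 transcription, at -0.40 ± 0.12 (limma, adjusted p = 0.013). In the list of lipid storage genes 1 of 9 rose and 3 fell, led by Cidea, a lipid droplet protein, whose change was -5.59 ± 0.82. Of the 8 hepatocyte markers 6 fell, and 8 of the 10 stellate cell and fibroblast markers rose. Male-biased liver genes fell too, led by Cyp2u1 at -1.49 ± 0.30, Hsd3b5 at -5.69 ± 1.23 and Cyp2d9 at -0.91 ± 0.22. The male-biased Elovl3 and the female-biased Cyp2b9 did not pass. Of the sex chromosome genes the Y-linked Uty rose by 0.36 ± 0.12 (limma, adjusted p = 0.0276), and Xist, Eif2s3y and Kdm5d did not pass. The part of these differences in the Mlxipl values was not tested.

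The difference of the transgene effect between the ages was tested directly. No lipogenic gene passed (0 of 10, with 0.275% of all genes passing). An unadjusted p under 0.05 (limma) was found for 1723 of all 13099 tested genes and for 1 of the 10. That gene was Me1, whose effect at week 48 minus that at week 20 was 1.15 ± 0.37 (SE, limma, adjusted p = 0.181). The sign was positive for 9 of the 10 genes and negative for Mlxipl, at -0.56 ± 0.37. Fasn was at 0.70, Thrsp at 0.76, Srebf1 at 0.47, Pnpla3 at 0.46 and Acly at 0.44, and Acaca, Gpam and Acacb were at 0.16, 0.14 and 0.06.

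**Figure D2:**
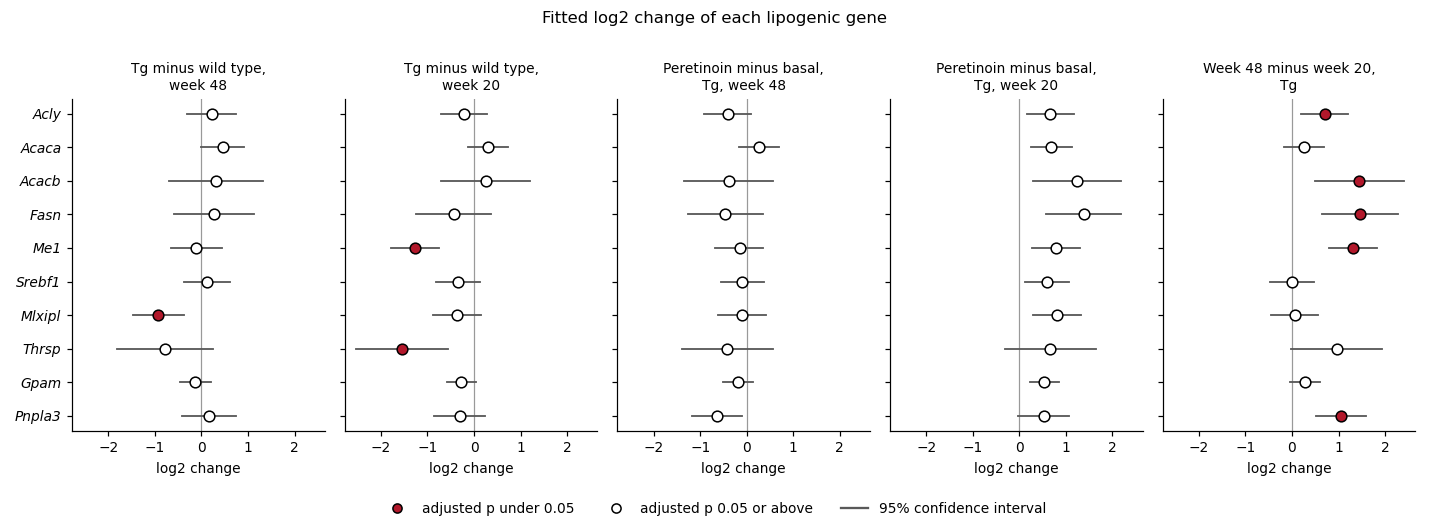
Fitted log2 change of each of the 10 genes in 5 comparisons, with 95% confidence intervals and filled points where the adjusted p was under 0.05. All 10 points lie right of 0 for peretinoin at week 20, none of them filled, and 9 of 10 lie left of 0 for peretinoin at week 48.

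The second question was whether the peretinoin diet changed these genes in transgenic mice. At week 20, 0 of the 10 genes passed the test, where 2.89% of all tested genes did, yet all 10 were higher on peretinoin. Of the 10, 8 had an unadjusted p under 0.05 (limma), as did 2549 of all 13099 tested genes. The median log2 change over the 10 genes was 0.68, against -0.02 over all tested genes. Within groups 6 of the 9 other genes followed Fasn from array to array, as given further on, so the shared direction is not 10 separate observations.

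Fasn was 5013.9, 6012.3, 3826.6, 14972.9 and 8871.1 in peretinoin livers of week 20, against 1621.6, 1621.9, 2120.8, 4193.9 and 5461.7 in livers on the basal diet. Only the 2 highest basal livers overlapped with the peretinoin livers. The log2 change was 1.38 ± 0.40 (SE), a 2.59-fold difference, with an unadjusted p of 0.00156 and an adjusted p of 0.0518 (limma). With quantile normalisation it passed (limma, adjusted p = 0.0456), as it did without the 6 arrays that carry another tissue (1.79, limma, adjusted p = 0.0239). It also passed without transgenic replicate 4 or replicate 5, the 2 highest basal livers, with adjusted p of 0.0366 and 0.0236 (limma). Fasn did not pass with an offset of 1, median centring, no filter, no trend or the compared arrays alone. Nor did it pass when any 1 peretinoin array was left out.

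Gpam and Me1 separated the diets fully at week 20, and the share of all tested genes that did so was not counted. Gpam was 8347.3, 9225.7, 7734, 12462.5 and 11885.9 in peretinoin livers, against 7529.2, 6580.3, 6415.7, 6315.2 and 6746.6 in basal livers, a change of 0.54 ± 0.16 (SE, limma, adjusted p = 0.0527). Me1 was 4048.3, 3945.2, 3804.8, 8640.3 and 3938.5 in peretinoin livers, against 1636.1, 2885.8, 2736.1, 2937.6 and 3539.4 in basal livers, a change of 0.79 ± 0.25 (limma, adjusted p = 0.0751). For Gpam the second probe set differed in the opposite direction, by -0.44. For Me1 both probe sets were higher, by 0.79 and 0.89, and without the 6 arrays with another tissue Me1 passed (1.05, limma, adjusted p = 0.0233).

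Mlxipl was 4075.1, 3266.7, 3474.9, 4507.7 and 2831.5 in peretinoin livers of week 20, against 1510.3, 1603.2, 2261.7, 3039.1 and 2084.6 in basal livers. A single basal liver, replicate 4, reached the range of the peretinoin livers, and without it the change passed the test (0.96, limma, adjusted p = 0.0366), against 0.81 ± 0.25 (SE, limma, adjusted p = 0.0653) with all arrays. It also passed without peretinoin replicate 5, the lowest of its group (0.90, limma, adjusted p = 0.0394). Leaving out either array widens the difference, and the change passed with no other array of these groups left out. Srebf1 averaged 8260 ± 1970 in peretinoin livers and 5460 ± 1320 in basal livers (SD, n = 5 each), a change of 0.59 ± 0.23 (SE, limma, adjusted p = 0.141).

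Acaca changed by 0.69 ± 0.21 with peretinoin at week 20 (SE, limma, adjusted p = 0.063), and its second probe set by -0.52, so the direction for this gene depended on the probe set. It passed without transgenic replicate 4 (0.80, limma, adjusted p = 0.0401) or replicate 5 (0.81, limma, adjusted p = 0.0367), and was 0.09 with the mean of both probe sets. These replicates were the highest basal livers for Acaca, so leaving either out widens the difference. Acacb averaged 902 ± 411 in peretinoin livers and 373 ± 159 in basal livers, a change of 1.24 ± 0.47, and Acly 7480 ± 1560 in peretinoin livers and 4690 ± 944 in basal livers, a change of 0.66 ± 0.25 (limma, adjusted p = 0.129 and 0.123). Acly's 3 kept probe sets ran from -0.10 to 0.66. Pnpla3 changed by 0.52 ± 0.27 and Thrsp by 0.66 ± 0.48, and Thrsp was split within the peretinoin group, with 3 livers at 3060 to 5571.3 and the others at 15113.3 and 21406.2.

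Several neighbours of the pathway did pass the test with peretinoin at week 20. Insig1 rose to a mean of 3150 in peretinoin livers, against 1420 in basal livers, a change of 1.13 ± 0.14 (SE, limma, adjusted p = 6.57e-05), and it was the 1 gene of 16 regulators that rose, with 0 that fell. In the elongation and assembly list 4 of 16 rose and 0 fell, led by Elovl5, an elongase of polyunsaturated fatty acids, at 0.70 ± 0.14, Scd1 at 0.67 ± 0.13 and Acsl5, an acyl-CoA synthetase, at 0.56 ± 0.14. In the supply list 2 of 14 rose and 0 fell, Acss2, which activates acetate, at 1.08 ± 0.26 and Idh1 at 0.34 ± 0.08 (limma, adjusted p = 0.0219). None of 9 fasting-response genes and none of 12 clock genes passed, with 1 and 2 at an unadjusted p under 0.05. Of 8 hepatocyte markers 0 passed and 7 were higher, and the list mean ran from 14.31 to 14.68 in peretinoin livers and from 14.09 to 14.49 in basal livers. Of 10 stellate cell and fibroblast markers 1 fell, and their mean ran from 10.41 to 11.13 in peretinoin livers and from 11.05 to 11.32 in basal livers. Of the 8 sex-biased genes, which pool male-biased genes with the female-biased Cyp2b9, 1 rose and 7 were higher. The part of these differences in the lipogenic values was not tested.

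At week 48 the direction with peretinoin was the opposite for 9 of the 10 genes, and none passed (0 of 10, where 0.725% of all genes passed). Of the 10, 1 had an unadjusted p under 0.05 (limma), as did 1835 of all 13099 tested genes. The median over the 10 genes was -0.29, against -0.02 over all tested genes. Pnpla3 was 126.7, 63.7, 56.2, 128.4 and 87.2 in peretinoin livers, against 119.3, 140.9, 177.9, 125.8 and 172.4 in basal livers, a change of -0.63 ± 0.27 (SE, limma, adjusted p = 0.274). Fasn averaged 5660 ± 2260 in peretinoin livers and 7400 ± 1410 in basal livers (SD, n = 5 each), a change of -0.46 ± 0.40, and Acly 6220 ± 3270 in peretinoin livers and 7720 ± 2000 in basal livers, a change of -0.41 ± 0.25. Acacb changed by -0.39, Thrsp by -0.42, Gpam by -0.19, Me1 by -0.15, Mlxipl by -0.11, Srebf1 by -0.09 and Acaca, the 1 gene with a positive value, by 0.26. The second probe set of Acaca differed by -0.85, which turns that direction, and that of Gpam by -1.08. Peretinoin replicate 1, an array with skeletal muscle transcripts, was the lowest of its group for Fasn (3228.7), Me1 (2913) and Thrsp (2314.7). It was the highest for Gpam (9737.6). Replicate 5, without such transcripts, was next lowest for Fasn (3491.6) and lowest for Acly (3326) and Gpam (4542.6). The mean log2 signal of the fasting-response genes was 12.11 in replicate 1 and 12.06 in replicate 5, against 10.82 to 11.77 in the others. The part of these differences in the lipogenic values was not tested. Mlxipl was the steadiest gene in this group, with signals from 1858.7 to 2067 and an SD of 4.06% of the mean. The clock gene Dbp ran from 360.5 to 6853.3 in these 5 livers, against 126.5 to 1715.2 in basal livers, and the part of that spread was not tested.

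The difference of the peretinoin effect between the ages, week 48 minus week 20, was negative for all 10 genes, with a median of -1.01 against -0.01 over all tested genes. It passed for 0 of 10 genes, where 0.679% of all genes passed. An unadjusted p under 0.05 (limma) was found for 8 of the 10 and for 1780 of all 13099 tested genes. Fasn had a difference of -1.84 ± 0.56 (SE, limma, adjusted p = 0.11), Gpam of -0.73 ± 0.22 (adjusted p = 0.112), Acly of -1.08 ± 0.35 (adjusted p = 0.133) and Pnpla3 of -1.16 ± 0.38 (adjusted p = 0.138). The other genes were Acacb at -1.63, Thrsp at -1.08, Me1 at -0.94, Mlxipl at -0.92, Srebf1 at -0.68 and Acaca at -0.43. Without transgenic week 20 replicate 4 Pnpla3 passed (-1.38, limma, adjusted p = 0.0458), and without peretinoin week 48 replicate 4 Acly passed (-1.33, adjusted p = 0.0289). Among the listed neighbours Insig1 passed, at -1.07 ± 0.20 (limma, adjusted p = 0.0135).

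Peretinoin livers were also set against wild-type livers, a comparison that shares the peretinoin arrays with those above. At week 20, 2 of 10 genes rose and 0 fell, where 17.4% of all genes passed. Acaca was 1401.4, 1502.4, 1407.7, 2622.6 and 1894.4 in peretinoin livers, against 918.2, 570.5, 1437, 650.8 and 920.9 in wild-type livers, a change of 0.99 ± 0.21 (SE, limma, adjusted p = 0.00137). One wild-type liver, replicate 3, lay inside the peretinoin range, and with the mean of both probe sets the change was 0.34 with an adjusted p of 0.296. Acacb rose 2.82-fold (95% confidence interval of the log2 change 0.54 to 2.45, limma, adjusted p = 0.0248), a call lost without wild-type replicate 2 (log2 change 0.86), without wild-type replicate 4 (1.27) or without peretinoin replicate 4 (1.26). It was also lost in a fit of the compared arrays alone (limma, adjusted p = 0.146) and without the arrays that carry another tissue (0.0791). Without wild-type replicate 3 Fasn passed (1.21, limma, adjusted p = 0.0379, against 0.94 and 0.102 with all arrays). Without peretinoin replicate 4 Me1 passed (-0.70, limma, adjusted p = 0.0497, against -0.48 and 0.202). Of the rest, Thrsp was at -0.89, Acly at 0.45, Mlxipl at 0.44, Gpam at 0.27, Srebf1 at 0.25 and Pnpla3 at 0.22, with adjusted p of 0.211 to 0.616 (limma).

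At week 48 1 gene rose and 1 fell between peretinoin and wild-type liver, where 16.8% of all genes passed. Acaca was 1521.1, 1918.3, 1512.6, 1668.3 and 1100.5 in peretinoin livers, against 1016.3, 709.3, 925.4 and 1050.7 in wild-type livers, with no overlap and a change of 0.72 ± 0.23 (SE, limma, adjusted p = 0.0253). Its second probe set differed by -0.63, and the mean of both by 0.05 (limma, adjusted p = 0.912). The call was lost without wild-type replicate 2 (0.60), wild-type replicate 3 (0.73) or peretinoin replicate 2 (0.64), with adjusted p of 0.0531 to 0.0998 (limma). Mlxipl was 2025.1, 2067, 1858.7, 1955.4 and 1946.2 in peretinoin livers, below every wild-type liver, a change of -1.03 ± 0.27 (limma, adjusted p = 0.00749). Without wild-type replicate 3 it was -0.66 with an adjusted p of 0.0698, and with the compared arrays alone the adjusted p was 0.0555 (limma). Gpam passed with the mean of its probe sets (-0.73, limma, adjusted p = 0.0101, against -0.32 and 0.197). Thrsp, at 2314.7 to 11049.6 in peretinoin livers, was also below every wild-type liver, at -1.21 ± 0.51 (limma, adjusted p = 0.1). Pnpla3 was at -0.48, Me1 at -0.26, Fasn at -0.20, Acly at -0.19, Acacb at -0.07 and Srebf1 at 0.04, with adjusted p of 0.26 to 0.942 (limma).

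Between tumours and transgenic livers of the same age no lipogenic gene passed the test. None of the 10 did so in limma and 0 of 10 had an unadjusted p under 0.05, in a comparison where 0% of all genes passed and 1075 of 13099 had an unadjusted p under 0.05. Fasn was 8037.9, 6754.8, 6735.2, 6648.3 and 13708.8 in tumours, against 7671.9, 5373, 7922.9, 6835.9 and 9185.7 in transgenic livers, a change of 0.14 ± 0.40 with an interval from -0.67 to 0.95. Acacb changed by -0.32, Mlxipl by -0.26, Pnpla3 by -0.09, Acaca by 0.07, Acly and Me1 by 0.17 each and Srebf1 by 0.26. The widest interval was that of Thrsp, from -0.91 to 1.04, and the narrowest that of Gpam, from -0.42 to 0.22, and differences within these bounds are compatible with the data.

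Against wild-type liver of week 48, tumours had 1 of 10 genes lower and 0 higher, where 27.1% of all genes passed. Mlxipl was 1561.3, 2373.8, 1404.7, 2353.9 and 1386.6 in tumours, against 2981.6, 4215.1, 8854 and 2414.5 in wild-type livers. Every tumour was below every wild-type liver, and the change was -1.19 ± 0.27 (SE, limma, adjusted p = 0.00105). The call held without any 1 array. Acaca was higher in every tumour (0.53 ± 0.23, limma, adjusted p = 0.0808) and Thrsp lower in every tumour (-0.73 ± 0.51, adjusted p = 0.312), and both passed with the compared arrays alone (limma, adjusted p = 0.0295 and 0.0032). Without wild-type replicate 2 Srebf1 passed (0.69, limma, adjusted p = 0.0285, against 0.39 and 0.258 with all arrays). Fasn was at 0.40, Acly at 0.39, Pnpla3 at 0.07, Me1 at 0.06, Acacb at 0.00 and Gpam at -0.23, with adjusted p of 0.282 to 0.998 (limma). These comparisons share wild-type arrays with the transgenic comparison at week 48.

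The last comparison was age. In transgenic livers on the basal diet 5 of 10 genes rose and 0 fell at week 48 relative to week 20, where 15.7% of all genes passed, and the median over the 10 genes was 0.83, against -0.04 over all tested genes. The 5 genes were Fasn, Acacb, Acly, Me1 and Pnpla3. In wild-type livers 0 of 10 passed, where 6.88% of all genes did, and the median was 0.23, against -0.02 over all tested genes. There 3 of the 10 had an unadjusted p under 0.05 (limma), as did 2750 of all 13099 tested genes.

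Me1 was 7761.2, 6275.2, 7405.1, 5695.4 and 6175.2 in transgenic livers at week 48, against 1636.1, 2885.8, 2736.1, 2937.6 and 3539.4 at week 20. The ages did not overlap, and the change was 1.31 ± 0.25 (SE, limma, adjusted p = 0.000884), with 1.37 in the second probe set. In wild-type livers Me1 averaged 7290 ± 1870 at week 48 (SD, n = 4) and 6620 ± 1750 at week 20 (SD, n = 5), a change of 0.15 ± 0.27. The difference between the genotypes in this age change is the same contrast as the difference of the transgene effect above, and did not pass.

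Fasn was 7671.9, 5373, 7922.9, 6835.9 and 9185.7 in transgenic livers at week 48, against 1621.6, 1621.9, 2120.8, 4193.9 and 5461.7 at week 20. Week 20 replicate 5 was the only array to reach the week 48 range, and the change was 1.46 ± 0.40 (SE, limma, adjusted p = 0.0114), 2.75-fold. Pnpla3 was 119.3, 140.9, 177.9, 125.8 and 172.4 at week 48, against 40.1, 54.5, 33.2, 127 and 87.5 at week 20, a change of 1.05 ± 0.27 (limma, adjusted p = 0.00721). In wild-type livers the changes were 0.76 ± 0.42 for Fasn and 0.59 ± 0.28 for Pnpla3, under the threshold (limma, adjusted p = 0.309 and 0.225).

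Acacb and Acly were at the edge of the threshold. Acacb averaged 1010 ± 273 in transgenic livers at week 48 and 373 ± 159 at week 20 (SD, n = 5 each), a change of 1.45 ± 0.47 (SE, limma, adjusted p = 0.0309). Its call was lost without week 20 replicate 1, 2 or 3 or week 48 replicate 1, 3 or 4, with changes of 1.32 to 1.42 and adjusted p of 0.0606 to 0.0832. Acly averaged 7720 ± 2000 at week 48 and 4690 ± 944 at week 20, a change of 0.70 ± 0.25 (limma, adjusted p = 0.0494). Its call was lost without week 20 replicate 1, 2, 3 or 4 or week 48 replicate 1, 3, 4 or 5, with changes of 0.59 to 0.75 and adjusted p of 0.0519 to 0.132. The Acly call was also lost with an offset of 1, quantile normalisation, no filter or no trend, with adjusted p of 0.05 to 0.0658 (limma). Both calls were also lost without the arrays that carry another tissue (limma, adjusted p = 0.0853 for Acacb and 0.0916 for Acly). In wild-type livers Acacb changed by 1.39 ± 0.49 with an adjusted p of 0.0859, or by 1.85 with 0.0181 without week 20 replicate 3 (limma). Srebf1 and Mlxipl in transgenic livers were at 0.00 ± 0.23 and 0.06 ± 0.25, Acaca at 0.26 ± 0.21, Gpam at 0.28 ± 0.16 and Thrsp at 0.96 ± 0.48, all under the threshold. With the mean of its probe sets Gpam passed (0.58, limma, adjusted p = 0.0318), and its second probe set differed by 0.88. In wild-type livers Mlxipl was at 0.62, Acly at 0.26, Thrsp at 0.20, Gpam at 0.14, Acaca at 0.10 and Srebf1 at -0.47. The second Gpam probe set differed by 0.83 in wild-type livers as well. Acly's 3 kept probe sets ran from 0.70 to 1.49 in transgenic livers and from 0.26 to 0.96 in wild-type livers. Those of Thrsp ran from -0.19 to 1.17 in transgenic livers and from -1.02 to 0.20 in wild-type livers.

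Circadian clock genes differed between the ages as well. In transgenic livers 3 of 12 rose and 7 fell, led by Per3 at -2.57 ± 0.39, Per2 at -2.24 ± 0.36 and Npas2 at 2.66 ± 0.45, and in wild-type livers 3 rose and 4 fell, led by Per3 at -2.32 ± 0.41, Dbp at -3.79 ± 0.77 and Arntl at 1.72 ± 0.42. Dbp had signals of 126.5 to 1715.2 in transgenic livers at week 48 and 4103.2 to 7743.2 at week 20. The labels give no hour of sampling, and the part of clock phase in the age change of the lipogenic genes was not tested. Age and any difference in how the samples of each age were handled cannot be told apart. In transgenic livers 3 of the 10 stellate cell and fibroblast markers fell with age and 0 of the 8 hepatocyte markers passed.

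**Figure D3:**
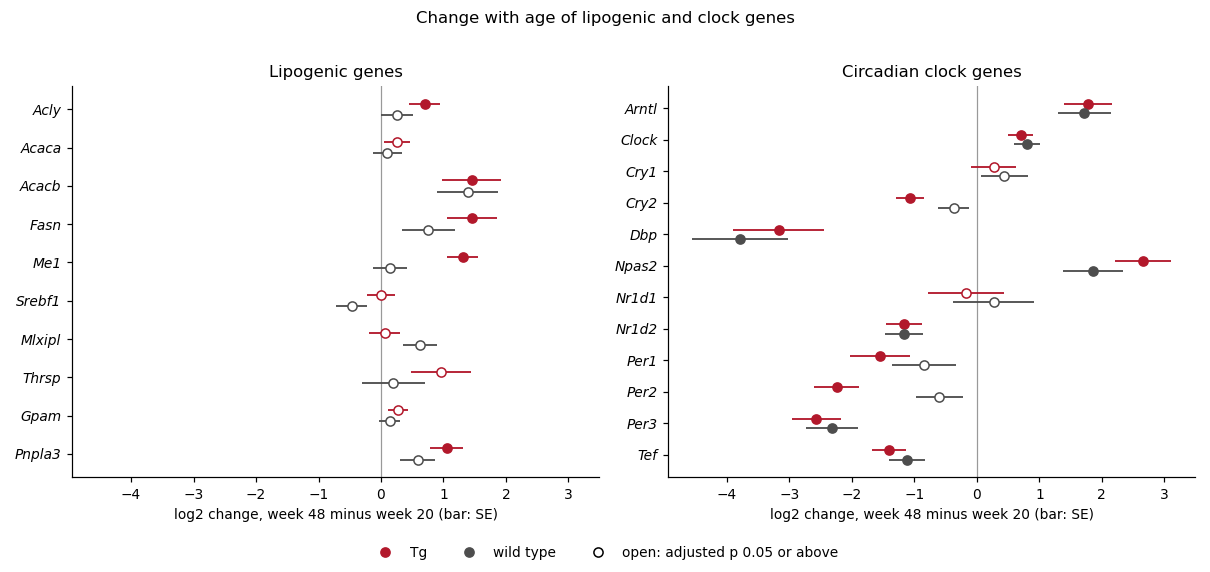
Log2 change, week 48 minus week 20, of the 10 lipogenic genes and 12 circadian clock genes in transgenic and wild-type livers, with SE bars and filled points where the adjusted p was under 0.05. In transgenic livers 5 lipogenic genes and 10 clock genes passed, and in wild-type livers 0 lipogenic genes and 7 clock genes.

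Other pathway genes in transgenic livers were also counted between the ages. Of 14 supply genes 5 rose and 1 fell, led by Acss2 at 1.73 ± 0.26, Taldo1 at 0.85 ± 0.14 and Cs, citrate synthase, at 0.74 ± 0.16. Of 16 elongation and assembly genes 4 rose and 1 fell: Elovl5 rose by 0.95 ± 0.14 and Acsl5 by 0.76 ± 0.14, and Dgat2 was the 1 that fell, at -0.80 ± 0.14. Of 16 regulators 3 rose and 5 fell, led by Insig1, which rose by 0.68 ± 0.14, Mbtps2, the site-2 protease of SREBP, which fell, at -0.39 ± 0.09, and Foxo1, a fasting factor held back by insulin, at -0.69 ± 0.18. Of 14 insulin and AMPK genes 3 fell, led by Akt1, a kinase of insulin signalling, at -0.70 ± 0.13.

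Within the groups 6 of the 9 other genes passed a test of joint variation with Fasn from array to array. The test was run on these 9 genes alone, so the share of all tested genes that would pass is not known. Whether such joint variation is particular to lipogenic genes was not tested. After each group's mean was taken out, Fasn was compared with the other 9 genes over 34 arrays by permutation within groups (100000 resamples, two-sided, adjusted over 9 relations). Acaca had a Pearson r = 0.84 and a Spearman coefficient of 0.79 (permutation p = 1e-05 for both, the smallest that these resamples give, adjusted 9e-05). Thrsp had r = 0.77 and Spearman 0.76 (permutation p = 9e-05 and 0.00012, adjusted 0.000202 and 0.000315), Acacb r = 0.74 and Spearman 0.59 (permutation p = 0.00013 and 0.00118, adjusted 0.000234 and 0.00212) and Me1 r = 0.71 and Spearman 0.69 (permutation p = 5e-05 and 3e-05, adjusted 0.000202 and 0.000135). Acly had r = 0.66 and Spearman 0.69 (permutation p = 9e-05 and 0.00014, adjusted 0.000202 and 0.000315), and Gpam r = 0.45 and Spearman 0.52 (permutation p = 0.0105 and 0.00362, adjusted 0.0157 and 0.00543).

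Neither transcription factor gene passed this test against Fasn. Srebf1 had r = 0.30 and Spearman 0.34 (permutation p = 0.0635 and 0.0511, adjusted 0.0816 and 0.0658), Pnpla3 r = 0.27 and Spearman 0.35 (permutation p = 0.157 and 0.07, adjusted 0.177 and 0.0787) and Mlxipl r = 0.10 and Spearman 0.11 (permutation p = 0.502 and 0.521, adjusted 0.502 and 0.521). Without the 2 arrays farthest from the median of Fasn, wild type week 20 replicate 2 and peretinoin week 20 replicate 4, r was 0.81 for Acaca, 0.65 for Thrsp, 0.51 for Acacb, 0.59 for Me1, 0.70 for Acly, 0.41 for Gpam, 0.40 for Srebf1, 0.35 for Pnpla3 and 0.03 for Mlxipl. The permutation p without them was 0.0224 for Srebf1 and at most 0.0296 for the 6 genes that passed with all arrays.

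**Figure D4:**
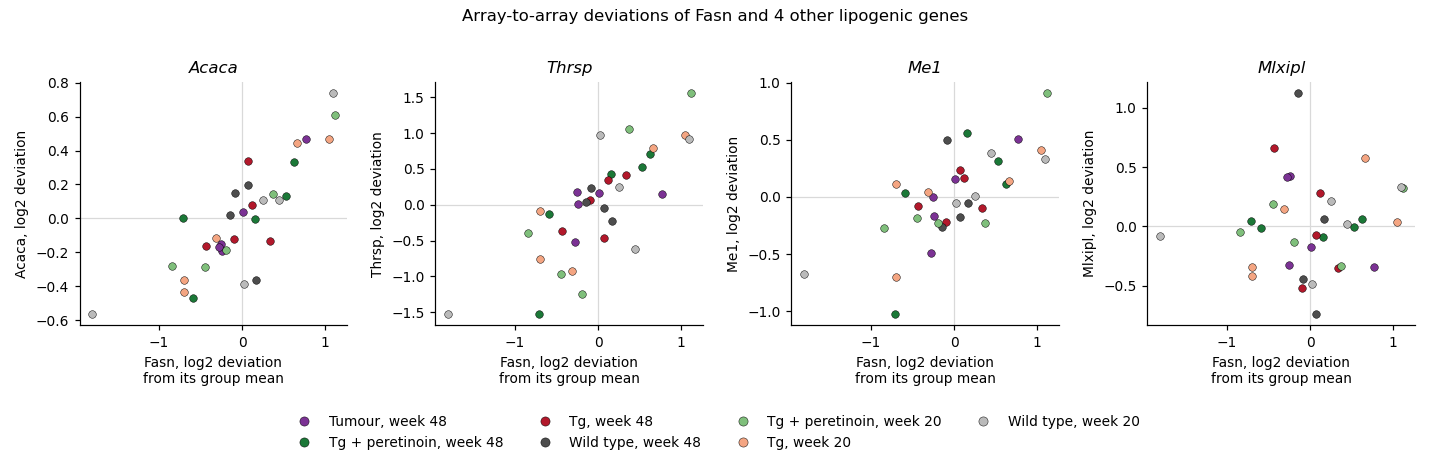
Deviation of Fasn from its group mean against that of Acaca, Thrsp, Me1 and Mlxipl on the same 34 arrays, in log2 units, coloured by group. Acaca (r = 0.84), Thrsp (0.77) and Me1 (0.71) follow Fasn, and Mlxipl has an r of 0.10.

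The genes also differed in how widely they ranged. Over 34 arrays the highest signal was 44.4 times the lowest for Acacb, 14.9 times for Fasn and 11.4 times for Thrsp, against 2.74 times for Gpam, 3.27 times for Srebf1 and 3.44 times for Acly. The low end for Acacb was a single array, wild type week 20 replicate 2. In the order of mean log2 signals, transgenic livers of week 20 were lowest of the 7 groups for Fasn, Acly, Me1, Thrsp, Gpam and Pnpla3, while wild-type livers of week 20 were lowest for Acaca and Acacb. Tumours were lowest for Mlxipl, and wild-type livers of week 48 lowest for Srebf1. Neighbouring groups in these orders mostly overlapped, as the plot of signals by array shows.

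Genes outside the set that followed it most closely were found by Pearson r, over 34 arrays, with the mean of the 10 standardised log2 signals, as a description with no test. The highest were Sc5d, a sterol desaturase (r = 0.82), Pmvk, phosphomevalonate kinase (0.79), Hmgcs1, HMG-CoA synthase of the cytosol (0.79), Elovl6, which elongates palmitate (0.77), and Lss, lanosterol synthase (0.76). Sc5d averaged 15500 ± 1800 in transgenic livers at week 48 and 9390 ± 2280 at week 20 (SD, n = 5 each), with 13700 ± 2770 in wild-type livers at week 20. The lowest were Fbxo31, an adaptor of a ubiquitin ligase (r = -0.73), Arhgap5 (-0.72), and Rab30, a small GTPase of the Golgi (-0.71). The 34 arrays share 7 groups, so these values hold group differences as well as array-to-array variation.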

How the data were processed

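The deposited intensity values are MAS5 signals, per the submitters' processing notes, which name no version. Per the labels' protocols, total RNA came from RNeasy columns and was turned into biotinylated cRNA. Each deposited array has a trimmed mean intensity (2% off each end) of 500.003 to 500.004, so the arrays share a scale. The values are summaries per probe set, so the precision computed here rests on the number of arrays and the spread between them.

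Signals were taken as log2(signal + 16). Of 45101 probe sets, 34958 had 1 gene symbol and 932 several, in a platform annotation that can be old. The brightest 60% were kept and each gene was read from its brightest probe set, which left 13099 genes. A limma 3.58.1 model (R 4.3.3) of the 7 groups, with an intensity trend, was fitted to all 34 arrays, and p-values were Benjamini-Hochberg adjusted within each of 12 comparisons at 0.05. The code was tested on simulated data. All 10 lipogenic genes are named in each comparison. Overlap between groups was read for these 10 genes alone, so the share of all tested genes that separate the same groups is not known. From other lists at most 3 called genes of smallest p are named, and genes of like pattern are the 5 highest and 3 lowest by r. The genes and lists were chosen with earlier results of these data known. Alternatives were other offsets, scalings, filters, probe set rules, no trend, fits of fewer arrays and the replicate number as a block. Same-numbered samples correlated at -0.157 to 0.432 (46 pairs, 17 over 0.1), and in 0 comparisons did every pair exceed 0.1, so pairing by number was not shown and no block was used. For tumour against transgenic liver 4 of 5 pairs exceeded 0.1. Promoter sequences are from RefSeq tables of GRCm38.p6.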

Additional observations from a re-analysis of the deposited data

Results flagged for a closer look

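In 5 of 70 sets of a gene and a group, 1 array stood apart from the others by Dixon's test at the 95% level, where chance gives about 1 in 20, or 3.5. Fasn was 13708.8 in tumour replicate 5, against 6648.3 to 8037.9 in the other tumours. Thrsp was 6545.7 in tumour replicate 4, against 9427.7 to 10604.5 in the others. Among peretinoin livers of week 20, replicate 4 was high for Acacb, at 1628.2 against 609.2 to 787, and for Me1, at 8640.3 against 3804.8 to 4048.3. Replicate 3 of the same group, an array with skeletal muscle transcripts, was low for Acly, at 4769.2 against 7826.6 to 8760.8. Replicate 5, whose skeletal muscle markers were higher still, had the highest Acly of the group, at 8760.8.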

How the results depend on the processing

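Of 120 tested changes of the 10 genes 13 were called. Leave-one-out fits aside, 130 of 142 alternatives of the called changes kept the call, 16 of 1166 alternatives of the others gained one, and no called change turned its sign under any alternative. The number of genes called became 2 for transgenic against wild-type liver at week 48, 3 for tumour against wild type, and 1 each for peretinoin against wild type at weeks 20 and 48, with the compared arrays alone. For peretinoin against transgenic liver at week 20 it became 1 with an offset of 64, 2 with quantile normalisation, 2 with the brightest 40%, 1 with the compared arrays alone, 2 without the arrays carrying another tissue and 1 with the replicate block (Fasn, limma, adjusted p = 0.0407). For peretinoin against wild type at week 20 it became 1 with the mean of probe sets and 1 without the arrays carrying another tissue, and for age in transgenic liver 3 without those arrays. The replicate block also gained Thrsp for peretinoin against wild type at week 48 (-1.32, limma, adjusted p = 0.0413) and changed no other call of the 10 genes. Leaving out each array gave 1 to 2 genes called for transgenic against wild type at week 20, 0 to 1 at week 48, 0 to 3 for peretinoin against transgenic liver at week 20, 1 to 2 for tumour against wild type, 1 to 3 and 0 to 2 for peretinoin against wild type at weeks 20 and 48, 0 to 1 for age in wild type, 3 to 5 for age in transgenic liver and 0 to 1 for the peretinoin effect by age. Uncalled values that turned sign were as follows. With the mean of probe sets they were Me1 for transgenic against wild type at week 48 (0), Acaca for peretinoin against transgenic liver at week 48 (-0.29), Gpam for peretinoin against wild type at week 20 (-0.14) and Thrsp for age in wild type (-0.23). With median centring they were Srebf1 for peretinoin against transgenic liver at week 48 (0.01) and for age in transgenic liver (0.12), and Acacb for tumour (0.07) and peretinoin (0.10) against wild type at week 48. Without the arrays carrying another tissue they were Srebf1 (0.05) and Me1 (0.05) for peretinoin against transgenic liver at week 48, Fasn for peretinoin against wild type at week 48 (0) and Srebf1 for age in transgenic liver (0.05). Pnpla3 for tumour against wild type was 0 with the replicate block, and Acacb for the transgene effect by age -0.01 with an offset of 1. Leave-one-out ranges that crossed 0 were, for transgenic against wild type, Acacb at week 20 (-0.38 to 0.71) and, at week 48, Me1 (-0.20 to 0.06), Srebf1 (-0.04 to 0.43) and Pnpla3 (-0.06 to 0.33). For tumour against transgenic liver they were Fasn (-0.05 to 0.22), Acaca (-0.05 to 0.16), Thrsp (-0.05 to 0.19) and Pnpla3 (-0.22 to 0.05), and for tumour against wild type Acacb (-0.23 to 0.13), Me1 (-0.07 to 0.22) and Pnpla3 (-0.15 to 0.24). For peretinoin at week 48 they were Me1 (-0.29 to 0.10), Srebf1 (-0.24 to 0) and Mlxipl (-0.24 to 0.06) against transgenic liver, and Acacb (-0.30 to 0.12) and Srebf1 (-0.13 to 0.34) against wild type. For age they were Acaca (-0.04 to 0.28), Me1 (-0.01 to 0.25) and Thrsp (-0.18 to 0.44) in wild type, and Srebf1 (-0.08 to 0.12) and Mlxipl (-0.11 to 0.20) in transgenic liver, and for the transgene effect by age Acaca (-0.03 to 0.30) and Acacb (-0.40 to 0.70). Counts over all genes that moved by over 1.5 times were 378 for peretinoin against transgenic liver at week 20 (163 with median centring, 229 with the compared arrays alone, 658 without the arrays carrying another tissue, 51 to 879 leaving out 1 array). At week 48 that count was 95 (55 with quantile normalisation, 55 with median centring, 62 with no filter, 4 with the compared arrays alone, 40 without the arrays carrying another tissue, 26 to 180 leaving out 1 array). Tumour against transgenic liver had 0 (4 without the arrays carrying another tissue, 0 to 6 leaving out 1 array), peretinoin against wild type at week 48 had 2204 (1040 with the compared arrays alone) and age in wild type 901 (302 with the compared arrays alone, 557 without the arrays carrying another tissue, 518 to 854 leaving out 1 array). The transgene effect by age had 36 (60 with median centring, 20 with no filter, 57 with the mean of probe sets, 15 without the arrays carrying another tissue, 12 to 66 leaving out 1 array), and the peretinoin effect by age 89 (48 with median centring, 48 with no filter, 136 with the brightest 40%, 54 with the mean of probe sets, 27 with the compared arrays alone, 135 without the arrays carrying another tissue, 11 to 215 leaving out 1 array). Median centring moved the median change of all genes to 0.19 for the transgene effect by age (-0.02 before), to 0.21 for peretinoin against wild type at week 48 (0.03 before) to -0.07 for transgenic against wild type at week 20 (0.06 before), to -0.06 for peretinoin against wild type at week 20 (0.05 before) and to 0.08 for age in transgenic liver (-0.04 before). The cause of these shifts was not tested.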
